A study of Mus musculus with 4 samples.

Results

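The 10 genes described here mark regulatory and effector T cells: Foxp3, Il2ra, Ikzf2, Tnfrsf18, Tnfrsf4, Icos, Tbx21, Eomes, Tcf7 and Themis. They were chosen by symbol from a table of 16218 genes, and all 10 were found in it. RNA-seq had been done on 4 mouse thyroids, 2 from NOD.H-2h4 mice injected with a monoclonal antibody against PD-L1 and 2 from NOD.H-2h4 mice injected with isotype control IgG. NOD.H-2h4 is an inbred strain prone to autoimmune thyroiditis, and both groups were injected 3 times a week for 2 weeks before the thyroid was taken. PD-L1 binds PD-1, a receptor that inhibits T cells, and the question was which thyroid genes differ when it is blocked. The batch field of the labels gave a different antibody clone name for every library, so it could not be separated from the library. Within a group these names differ only in their last digit, and whether different antibodies were meant cannot be told from the labels. Sex and age were not given in the labels, and nothing in them said whether any mice shared a litter.

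Regulatory T cells restrain other T cells. They depend on the transcription factor FOXP3 and on interleukin-2, which they bind through the high-affinity receptor chain encoded by Il2ra. Effector T cells of the type 1 kind are directed by the T-box factors T-bet and EOMES and secrete interferon gamma. TCF-1, the product of Tcf7, maintains naive and stem-like T cells. The receptors OX40, GITR and ICOS, encoded by Tnfrsf4, Tnfrsf18 and Icos, are displayed by activated T cells and, at high levels, by regulatory T cells.

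Of these 10 genes, 9 had higher values in each anti-PD-L1 thyroid than in either IgG thyroid, and Ikzf2 was the exception. Such a separation was found in 16.5% of all 16217 genes tested. The opposite separation was found in 13.1% of all genes and in 0 of the 10. The median log2 fold change of the 10 genes, anti-PD-L1 minus IgG, was 1.74, against 0.00021 over all genes tested. No gene passed an adjusted p of 0.05 (Benjamini-Hochberg, over all genes) in the quasi-likelihood test of edgeR (0% of genes, and 0 of the 10). At an unadjusted edgeR p under 0.05, 9 of the 10 genes were higher, against 4.96% of all genes. limma voom also passed 0 genes, with 1043 of all genes and 9 of the 10 at an unadjusted p under 0.05. DESeq2 called 8 of the 10 higher at an adjusted p under 0.05, against 2.93% of all genes, and left out Il2ra and Ikzf2. That DESeq2 count was lower in every fit that left out 1 library. Il2ra, not among the 8, was called without anti-PD-L1 replicate 1. The share of all genes called in those fits is not given here. Each gene of the table reached at least 100 counts in at least 1 library, and Eomes did so only in anti-PD-L1, where it was higher. Without Eomes, 8 of 9 genes had separate higher values, against 15.6% of the 15881 genes that reached 100 counts in an IgG library. DESeq2 called 7 of these 9, against 2.58%, and their median log2 fold change was 1.73. With 2 libraries a group, an exact two-sided permutation test cannot go below p = 0.333. All p-values measure only the spread among these 4 libraries.

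Total counts were 75591923 and 77685257 in anti-PD-L1 thyroids and 79663374.5 and 77492328 in the IgG libraries. At these depths 3 counts, the limit for a gene not seen, correspond to 0.0370 to 0.0408 CPM (counts scaled to a common library size), which covers counting error only. Anti-PD-L1 replicate 1 stood apart from the others in thyroglobulin and in the sex-linked genes Xist and Ddx3y. Thyroglobulin (Tg) took 4.34% of its counts, against 14.6% to 16.9% elsewhere. Its Xist level was 1.40 CPM and its Ddx3y level 62.6 CPM, against at least 67.7 and at most 0.79 CPM in the other libraries. Xist is transcribed from an inactive X chromosome and Ddx3y from the Y, while Foxp3 is X-linked, and the part of this difference in the results was not tested. Without that library the median log2 fold change of the 10 genes was 1.75, against −0.0075 over all genes tested. IgG replicate 1 had the lowest sum of 21 T cell receptor signalling and pan-T genes, 65.6 CPM against 133 CPM in IgG replicate 2. Without IgG replicate 1 the median of the 10 genes was 1.38, against −0.0048 over all genes tested.

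Thyroid follicular RNA was present in all libraries, with 10 of 10 follicular markers measured. Their summed level was 45973 and 166930 CPM in anti-PD-L1 thyroids and 155555 and 150185 CPM in IgG thyroids. Marker lists of other cells were set against the 16.5% of all genes higher and 13.1% lower without overlap. Of 8 NK and innate lymphoid markers measured, 7 had non-overlapping higher values. Of these, 5 were listed only through their anti-PD-L1 counts, and among the other 3 markers 2 were higher. The sums, in part fixed by that minimum, were 35.9 and 37.3 CPM in anti-PD-L1 and 5.40 and 7.94 CPM in IgG. Macrophage markers had non-overlapping higher values in 6 of 7, with sums of 487 and 496 CPM against 126 and 160 CPM. B cell markers did so in 1 of 8, a share below that of all genes. Their sums, 147 and 76.1 CPM in anti-PD-L1 and 40.8 and 116 CPM in IgG, overlapped. Of 3 lymph node stroma markers measured, only Cxcl13, a chemokine of B cell follicles, was higher without overlap. It had 99.7 and 56.7 CPM against 10.1 and 29.1 CPM (DESeq2 adjusted p = 0.0248). Cr2 overlapped at 6.82 and 3.09 CPM against 1.84 and 11.6 CPM, as did Pdpn at 19.1 and 11.9 CPM against 13.7 and 15.5 CPM. The list summed to 126 and 71.7 CPM in anti-PD-L1, mostly Cxcl13, and to 25.6 and 56.2 CPM in IgG. Parathyroid and skeletal muscle markers overlapped between groups for every gene. Skeletal muscle markers summed to 39806 and 13875 CPM in anti-PD-L1 and 23394 and 33461 CPM in IgG. Parathyroid markers summed to 3645 and 2670.5 CPM in anti-PD-L1 and 3515 and 1202 CPM in IgG. In contrast, 5 of 5 tracheal cartilage markers were lower in both anti-PD-L1 libraries, with sums of 23.7 and 26.4 CPM against 94.7 and 117 CPM. The part of these tissues and cells in the results below was not tested.

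Foxp3, whose product defines the regulatory lineage, had 5.50 and 5.96 CPM in anti-PD-L1 replicates 1 and 2, against 1.48 and 2.01 CPM in IgG replicates 1 and 2. The groups did not overlap, and the IgG libraries differed 1.36-fold. The level was 3.29-fold higher, or 1.72 ± 0.27 on the log2 scale (SE, n = 2 each), with the smallest p of the 10 genes by edgeR (adjusted p = 0.213, DESeq2 adjusted p = 5.4e-05). In bulk tissue, more cells of a type and more RNA per cell cannot be told apart, for Foxp3 or for any gene below. Foxp3 lies on chromosome X of GRCm38 (the assembly also called mm10) from 7573644 to 7595245, and its annotated exons share 853 bases with Flicr on the same strand. On the opposite strand they share 590 bases with Ccdc22, 373 bases with Gm36995 and 266 bases with Ppp1r3f. The strand setting of the counting was not given in the sources used here, so reads from these stretches could belong to either gene. Flicr and Gm36995 were not analysed here, and neither of the protein-coding partners showed the Foxp3 pattern. Ccdc22 had 11.5 and 12.7 CPM in anti-PD-L1 against 14.5 and 12.1 CPM in IgG, and Ppp1r3f had 2.45 and 1.67 CPM against 1.48 and 2.49 CPM.

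Ikzf2 encodes Helios, an Ikaros-family factor found in many regulatory T cells. It had 15.8 and 13.7 CPM in anti-PD-L1 thyroids, against 16.3 and 8.99 CPM in IgG thyroids. The highest value belonged to IgG replicate 1, so the groups overlapped. The log2 fold change was 0.22 ± 0.33 with a 95% interval of −0.67 to 1.12 (edgeR adjusted p = 1, DESeq2 adjusted p = 1). Without IgG replicate 2 the estimate was −0.14. Ikzf2 was thus the only one of the 10 genes whose direction turned when a single library was left out.

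Il2ra, the gene of the interleukin-2 receptor alpha chain CD25, had 4.19 and 7.48 CPM in anti-PD-L1, against 2.46 and 2.48 CPM in IgG. The IgG libraries were nearly equal, while the anti-PD-L1 libraries differed 1.78-fold, with replicate 2 the higher. The log2 fold change was 1.24 ± 0.35 (edgeR adjusted p = 0.549, DESeq2 adjusted p = 0.11), and it ranged from 0.75 without anti-PD-L1 replicate 2 to 1.60 without anti-PD-L1 replicate 1. In the fit without anti-PD-L1 replicate 1, DESeq2 called it (adjusted p = 0.0199).

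**Figure D1:**
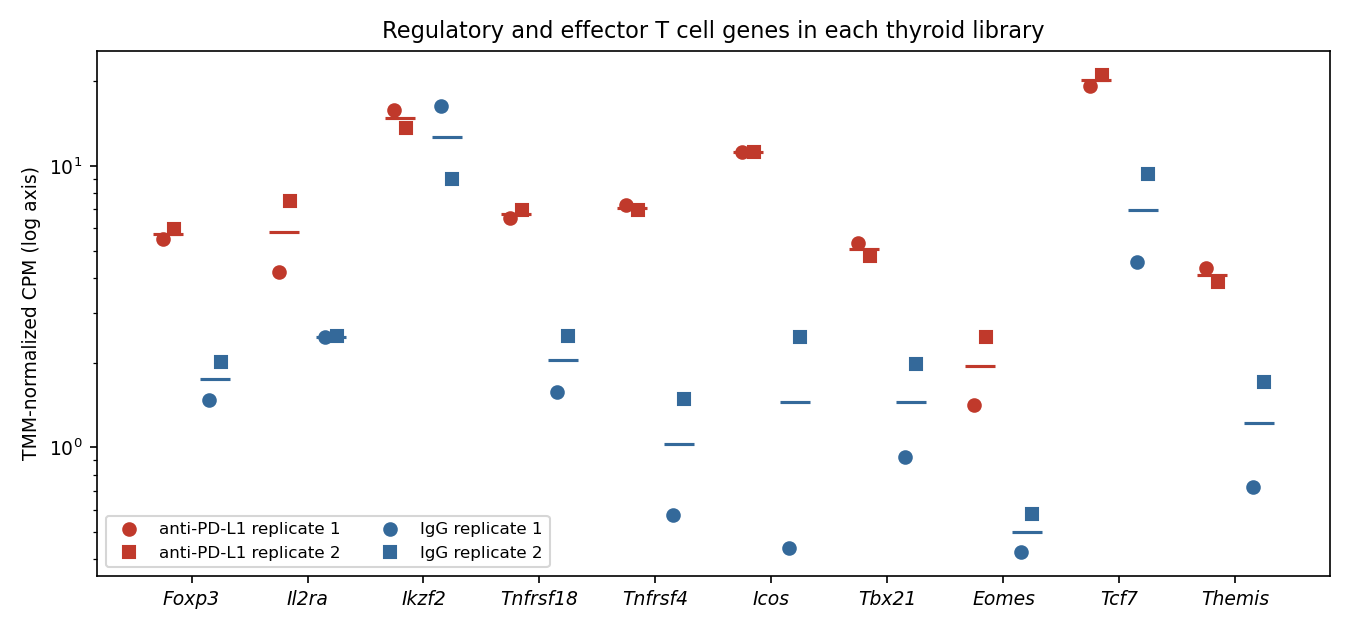
TMM-normalized CPM (log axis) of each of the 10 genes in every library, with anti-PD-L1 libraries in red and IgG libraries in blue, circles for replicate 1, squares for replicate 2 and bars for the group means (n = 2 each). The groups are separate for 9 genes and overlap for Ikzf2, and the IgG replicates of Icos lie at 0.438 and 2.47 CPM.

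The 3 co-stimulatory receptor genes included the largest differences of the set. Tnfrsf4, which encodes OX40, had 7.27 and 6.96 CPM in anti-PD-L1 thyroids, against 0.575 and 1.48 CPM in IgG thyroids. Neither IgG thyroid came near the anti-PD-L1 thyroids. The difference was 6.91-fold, or 2.79 ± 0.52 on the log2 scale (edgeR adjusted p = 0.273, DESeq2 adjusted p = 3.1e-05). On that scale it was 2.24 without IgG replicate 1 and 3.62 without IgG replicate 2. Tnfrsf4 was the only one of the 10 genes that DESeq2 called in every fit that left out 1 library, with adjusted p from 1.1e-08 to 0.0257.

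Icos, a co-stimulatory receptor of the CD28 family, had 11.2 and 11.2 CPM in anti-PD-L1, against 0.438 and 2.47 CPM in IgG. The anti-PD-L1 libraries were almost the same, whereas IgG replicate 2 was 5.64 times as high as IgG replicate 1, the widest gap between replicates among the 10 genes. Its log2 fold change of 2.95 ± 0.85 therefore carried a 95% interval of 0.66 to 5.24 (edgeR adjusted p = 0.558, DESeq2 adjusted p = 0.0063). It was 2.16 without IgG replicate 1 and 4.67 without IgG replicate 2. DESeq2 no longer called Icos with 1 anti-PD-L1 library fewer, with adjusted p of 0.0764 without replicate 1 and 0.107 without replicate 2.

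Tnfrsf18, the gene of GITR, had 6.51 and 6.96 CPM in anti-PD-L1 thyroids, against 1.58 and 2.49 CPM in IgG thyroids. The IgG libraries differed 1.58-fold and the groups were apart. Its level was 3.31-fold higher, or 1.73 ± 0.31 on the log2 scale (edgeR adjusted p = 0.259, DESeq2 adjusted p = 0.00042). Its exons share 414 bases with Gm16008 on the opposite strand, which was not analysed here. Tnfrsf4 (156013843 to 156016612) and Tnfrsf18 (156026164 to 156028895) lie on the same strand of chromosome 4. They are 9551 bases apart, with 2 annotated genes between them. The ratio of Tnfrsf4 to Tnfrsf18 counts was 1.12 and 1 in anti-PD-L1, against 0.365 and 0.595 in IgG. Per kilobase of merged exons, Tnfrsf4 had 5.32 and 5.10 CPM in anti-PD-L1, against 4.27 and 4.57 for Tnfrsf18. In IgG it had 0.421 and 1.09, against 1.03 and 1.64. Per length, Tnfrsf4 was thus below Tnfrsf18 in both IgG libraries and above it in both anti-PD-L1 libraries.

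Promoter windows of 300 bases, from 250 before to 50 after a RefSeq transcript start on GRCm38.p6, were matched for 8 of the 10 genes, 11 windows in all. The windows of Tnfrsf4, Tnfrsf18, Foxp3 and Tbx21 are printed. They belong to the 2 nearby receptor genes and to the factors that name the regulatory and type 1 lineages. Of the pair of Foxp3 windows, the one that holds a match is printed, and the other (chrX:7579426-7579725) holds none of the motifs. Capitals mark the letters TTCNNNGAA, the palindromic STAT site.
Tnfrsf4 (chr4:156013445-156013744, + strand): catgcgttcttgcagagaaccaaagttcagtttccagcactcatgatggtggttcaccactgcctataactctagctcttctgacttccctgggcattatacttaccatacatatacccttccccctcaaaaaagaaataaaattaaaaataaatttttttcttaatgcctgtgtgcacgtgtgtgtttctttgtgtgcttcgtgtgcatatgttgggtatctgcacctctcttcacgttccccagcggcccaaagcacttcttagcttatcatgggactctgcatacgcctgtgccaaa
Tnfrsf18 (chr4:156026072-156026371, + strand): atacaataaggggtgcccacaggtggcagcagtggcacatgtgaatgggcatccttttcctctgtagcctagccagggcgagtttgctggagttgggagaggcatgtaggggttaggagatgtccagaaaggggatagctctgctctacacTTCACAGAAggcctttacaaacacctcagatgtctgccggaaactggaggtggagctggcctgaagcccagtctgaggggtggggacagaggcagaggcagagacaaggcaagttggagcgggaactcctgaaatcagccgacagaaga
Foxp3 (chrX:7580233-7580532, + strand): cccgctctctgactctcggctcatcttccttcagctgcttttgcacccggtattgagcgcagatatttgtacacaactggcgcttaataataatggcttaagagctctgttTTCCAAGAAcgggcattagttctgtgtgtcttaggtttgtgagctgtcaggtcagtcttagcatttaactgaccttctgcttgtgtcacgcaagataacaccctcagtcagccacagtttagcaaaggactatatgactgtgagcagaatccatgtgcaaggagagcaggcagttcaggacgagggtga
Tbx21 (chr11:97115282-97115581, − strand): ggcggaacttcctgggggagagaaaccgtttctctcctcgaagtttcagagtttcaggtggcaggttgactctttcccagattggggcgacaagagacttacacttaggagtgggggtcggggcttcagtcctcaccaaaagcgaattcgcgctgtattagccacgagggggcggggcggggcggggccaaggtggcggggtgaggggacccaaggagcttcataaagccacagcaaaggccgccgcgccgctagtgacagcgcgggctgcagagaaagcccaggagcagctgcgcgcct

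On either strand, TTCNNNGAA was found in 2 of the 11 windows, 99 bases before the start in Tnfrsf18 and 139 bases before it in Foxp3, and in 8.3% of all 32851 windows of this length. The letters TGTGGT (RUNX), TCACACC (T-box) and CTTTGA (TCF) were found in 0 of the 11 windows, against 16.8%, 3.98% and 16.0% of all windows. With matches to a single motif, no overlap between motifs could arise.

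Among the effector regulators, Tbx21, the gene of the type 1 master factor T-bet on chromosome 11 (97098071 to 97115331), had 5.33 and 4.78 CPM in anti-PD-L1, against 0.925 and 1.97 CPM in IgG. The groups did not overlap, with IgG replicate 2 between IgG replicate 1 and the anti-PD-L1 thyroids. The level was 3.49-fold higher, or 1.80 ± 0.43 on the log2 scale (edgeR adjusted p = 0.415, DESeq2 adjusted p = 0.0134). On that scale the difference was 1.34 without IgG replicate 1 and 2.45 without IgG replicate 2. Eomes encodes a related T-box factor of memory CD8 T cells and NK cells. It had 1.42 and 2.47 CPM in anti-PD-L1, against 0.425 and 0.578 CPM in IgG, the lowest CPM of the 10 genes in each of the 4 libraries. The groups did not overlap, and anti-PD-L1 replicate 2 was the highest.

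Eomes had 103.5 and 200 counts in the anti-PD-L1 libraries and 34 and 44.5 counts in the IgG libraries. It was thus listed only through its anti-PD-L1 counts, and its difference is in part fixed by that minimum. The other 9 genes reached 100 counts in at least 1 IgG library. The log2 fold change of Eomes was 1.95 ± 0.43 (edgeR adjusted p = 0.359, DESeq2 adjusted p = 0.0232). Tbx21 counts were 3.77 and 1.94 times the Eomes counts in anti-PD-L1, against 2.18 and 3.41 times in IgG, which overlap. NK cells also transcribe both genes. The sums of NK markers were also higher in anti-PD-L1 thyroids, as given above, in part fixed by the count minimum for 5 of the 8 markers. The part of NK cells was not tested.

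Tcf7 (chromosome 11, 52252371 to 52283014) had 19.2 and 21.1 CPM in anti-PD-L1, against 4.55 and 9.39 CPM in IgG. It had the highest CPM of the 10 genes in both anti-PD-L1 libraries, and IgG replicate 2 was 2.06 times IgG replicate 1. Its level was 2.89-fold higher, or 1.53 ± 0.39 on the log2 scale (edgeR adjusted p = 0.469, DESeq2 adjusted p = 0.0198). Themis encodes an adaptor of T cell receptor signalling needed for thymocyte selection. It had 4.33 and 3.88 CPM in anti-PD-L1, against 0.725 and 1.71 CPM in IgG, a difference of 1.75 ± 0.47 on the log2 scale (edgeR adjusted p = 0.519, DESeq2 adjusted p = 0.0454). Without IgG replicate 2 the log2 fold changes were 2.15 for Tcf7 and 2.50 for Themis, and without IgG replicate 1 they were 1.08 and 1.24. The groups of both genes were apart, with IgG replicate 2 nearer to the anti-PD-L1 libraries.

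Tcf7 and Themis are also strongly transcribed in the thymus, which lies near the thyroid. Of 6 thymocyte markers measured, 2 were higher and 1 was lower without overlap. Their summed level was 77.0 and 89.3 CPM in anti-PD-L1 and 83.9 and 83.0 CPM in IgG. Tcf12, a broadly expressed factor, made up most of that sum, at 54.6 and 55.2 CPM against 58.6 and 57.4 CPM. Tox, a factor of developing and of chronically stimulated T cells, was the 1 thymocyte marker that DESeq2 called (adjusted p = 0.0217), at 7.46 and 6.50 CPM against 2.10 and 3.40 CPM. Dntt, the polymerase of immature lymphocytes, had 1.71 and 2.26 CPM against 1.65 and 1.69 CPM. The 5 thymic epithelial markers measured summed to 13.2 and 13.9 CPM in anti-PD-L1 and 15.4 and 9.22 CPM in IgG, and 1 of them, Fezf2, was higher without overlap and listed only through its anti-PD-L1 counts.

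**Figure D2:**
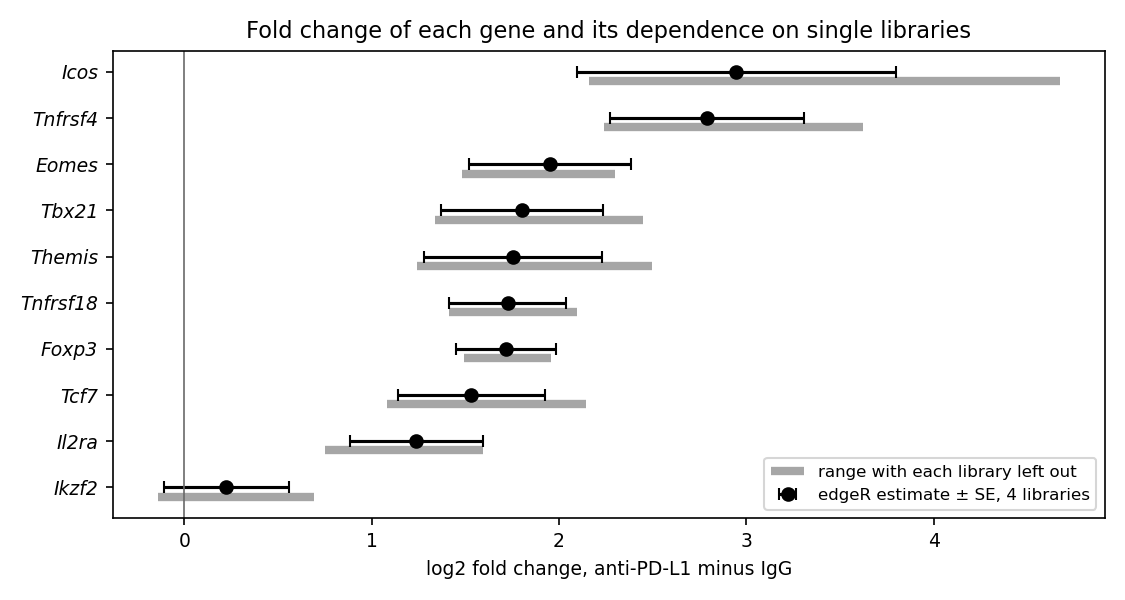
Log2 fold change (anti-PD-L1 minus IgG) of the 10 genes from edgeR, with SE bars (n = 2 per group), above a grey bar for the range of estimates when each library was left out in turn. Icos has the widest range, 2.16 to 4.67, and Ikzf2 alone reaches below 0, at −0.14.

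Levels were next compared between genes per kilobase of merged exons (GENCODE release M21). In the anti-PD-L1 libraries the order of mean levels was Tcf7 (7.68 CPM per kilobase), Tnfrsf4 (5.21), Tnfrsf18 (4.42), Icos (3.27), Tbx21 (2.03), Ikzf2 (1.27), Foxp3 (1.25), Il2ra (1.02), Eomes (0.467) and Themis (0.351). The first 5 were each above the next without overlap of the libraries, whereas Ikzf2, Foxp3 and Il2ra overlapped their neighbours, as did Eomes and Themis. In the IgG libraries Tcf7 was again highest (2.66 CPM per kilobase) and Eomes (0.121) and Themis (0.104) lowest. There the genes from Tnfrsf18 (1.34) down to Foxp3 (0.381) each overlapped the next. Ikzf2 held the third place in IgG and the sixth in anti-PD-L1, while Icos held the seventh place in IgG and the fourth in anti-PD-L1.

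The libraries also differed in T cell transcripts as a whole. The mean log2 CPM of Cd3d, Cd3e and Cd3g, which encode invariant chains of the T cell receptor complex, was 3.81 and 3.79 in anti-PD-L1, against 0.81 and 1.98 in IgG, a difference of 2.41. Each gene was therefore also set against these chains within its own library, as a description with no test. Icos and Tnfrsf4 were higher relative to Cd3 chains in both anti-PD-L1 libraries. The log2 level of Icos minus that of the chains was −0.33 and −0.30 in anti-PD-L1, against −1.92 and −0.66 in IgG, and that of Tnfrsf4 was −0.95 and −0.99 against −1.55 and −1.38. By the same measure 7 genes were lower without overlap and Eomes overlapped. Because the chains differed by 2.41, a gene with the same CPM in every library would also be lower by this measure. The share of all genes that were lower by it is not given here. Foxp3 was at −1.35 and −1.21 in anti-PD-L1, against −0.23 and −0.95 in IgG. Tcf7 was at 0.45 and 0.61, against 1.38 and 1.26. Ikzf2 differed most, at 0.17 and −0.01 in anti-PD-L1, against 3.21 and 1.19 in IgG. Its own CPM overlapped between the groups, and whether its RNA came from T cells was not tested.

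How many genes were lower depended on the transcripts used as the measure of T cells. With the mean of 21 genes of T cell receptor signalling and pan-T markers, a choice made after the data were seen, that mean differed by 1.97 and 3 genes remained lower without overlap, namely Ikzf2, Tcf7 and Themis. Icos and Tnfrsf4 were again higher, and the other 5 overlapped. Here too, a gene with the same CPM in every library would be lower. Foxp3 was then at −1.13 and −0.99 in anti-PD-L1 and −0.43 and −1.18 in IgG. Foxp3 counts were 1.03 and 1.25 times Tbx21 counts in anti-PD-L1, against 1.59 and 1.02 times in IgG, which overlap. Icos counts were 2.03 and 1.88 times Foxp3 counts in anti-PD-L1, against 0.297 and 1.23 times in IgG, which do not.

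**Figure D3:**
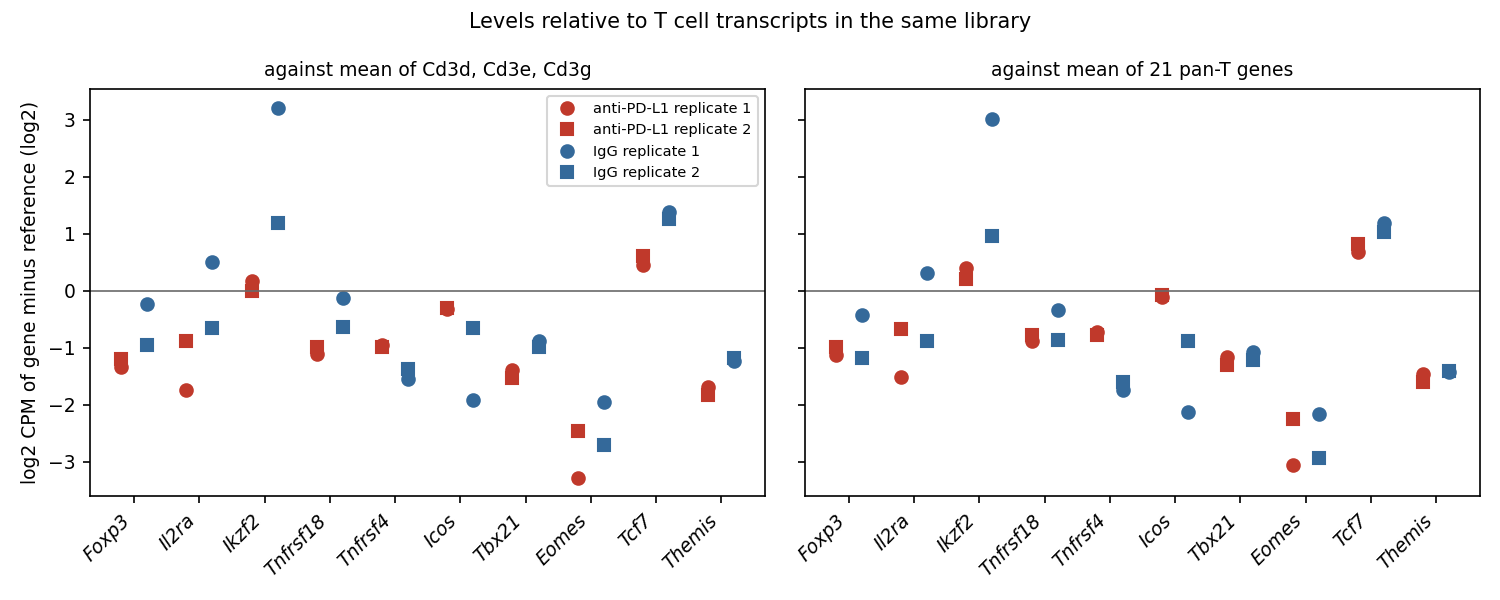
Log2 CPM of each gene minus the mean log2 CPM of Cd3d, Cd3e and Cd3g (left panel) or of 21 pan-T genes (right panel) in the same library, with anti-PD-L1 libraries in red and IgG libraries in blue. Icos and Tnfrsf4 are higher in both anti-PD-L1 libraries on both scales, while Foxp3 is lower without overlap on the left (−1.35 and −1.21 against −0.23 and −0.95) and overlaps on the right. Both references were higher in anti-PD-L1, so a gene with the same CPM in every library would be lower on both scales.

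The 10 genes did not share a single profile. Likeness was measured as the root mean square difference between log2 CPM profiles centred over the 4 libraries, for all 45 pairs. Tbx21 and Themis were the closest pair (0.0504), followed by Foxp3 and Tnfrsf18 (0.0782). Ikzf2 and Icos were the farthest apart (1.94). Tnfrsf4 was closer to Icos (0.457) than to the nearby gene Tnfrsf18 (0.628). Over 16052 other genes with a mean of at least 1 CPM, those nearest to the mean profile of the 10 genes were Gbp9 (0.0303), Nckap1l (0.0442), Fgl2 (0.0448), Slc15a3 (0.0530) and Tagap (0.0532). Lcp2 (0.0606), Gm7609 (0.0608) and Itgae (0.0698) were nearest to Foxp3, and Vav1 (0.0435), Sp100 (0.0627) and Cd84 (0.0667) to Tcf7. With 4 libraries many genes can have nearly the same profile.

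Other genes of each lineage were counted in the same way. The counts stand against 16.5% of all genes higher and 13.1% lower without overlap, and 2.93% called higher by DESeq2. Of 16 further regulatory T cell genes measured, 8 were higher and 1, Il1rl1, was lower without overlap, and DESeq2 called 7 higher, with a median log2 fold change of 0.45. Of these, Ccr8, Ctla4, Ebi3 and Izumo1r were listed only through their anti-PD-L1 counts. Among the other 12, 4 were higher without overlap, DESeq2 called 3, and the median was 0.25. Ccr8, a chemokine receptor of tissue regulatory T cells, had 2.53 and 2.49 CPM in anti-PD-L1, against 0.050 and 0.184 CPM in IgG. Ctla4, which encodes an inhibitory receptor of the CD28 family, had 5.36 and 5.06 CPM against 0.325 and 0.945 CPM. Tigit had 8.78 and 7.24 CPM against 0.588 and 1.59 CPM. Itgae, the integrin chain CD103, had 10.2 and 10.1 CPM against 2.88 and 3.81 CPM. The groups of all 4 were apart, which for Ccr8 and Ctla4 is in part fixed by the count minimum. Ikzf4, the Helios relative Eos, had 3.85 and 13.9 CPM against 12.2 and 14.3 CPM and overlapped, as did Nt5e, Lrrc32 and Nrp1. These last 4, Il1rl1, Ebi3 and Izumo1r were chosen after their values were seen.

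Of 18 further type 1 effector genes measured, 15 were higher without overlap and 0 lower, and DESeq2 called 10, with a median of 1.46. Of these, Prf1, Gzmb and Il12rb1 were listed only through their anti-PD-L1 counts, and among the other 15 there were 12 higher and 7 called, with a median of 1.21. Prf1 and Gzmb, which encode the cytotoxic granule proteins perforin and granzyme B, had log2 fold changes of 2.57 ± 0.28 and 3.24 ± 0.41 (SE, n = 2 each), in part fixed by the count minimum. Il12rb2, the inducible interleukin-12 receptor chain, overlapped between groups at 1.44 and 2.37 CPM against 1.65 and 2.40 CPM. It and Il12rb1 were chosen after their values were seen.

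Of 14 naive and stem-like genes measured other than Tcf7, 7 were higher without overlap and DESeq2 called 1, Il7r, with a median log2 fold change of 0.20. Il7r, the interleukin-7 receptor chain, was at 9.61 and 10.7 CPM in anti-PD-L1, against 1.95 and 4.40 CPM in IgG. Lef1, which encodes a factor close to TCF-1, had 2.31 and 2.65 CPM against 0.813 and 1.79 CPM (0.93 ± 0.45 on the log2 scale, adjusted p = 1 by edgeR). Slamf6 and S1pr1 had log2 fold changes of 1.54 ± 0.76 and 0.40 ± 0.21. Ccr7, a homing receptor of naive T cells, had 13.6 and 8.91 CPM in anti-PD-L1, against 0.825 and 5.99 CPM in IgG, with IgG replicate 2 nearer to the anti-PD-L1 libraries than IgG replicate 1. It was chosen after its values were seen.

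Of 11 genes of other helper lineages measured, 2 were higher and 2 lower without overlap, shares near those of all genes, DESeq2 called 0, 0 had an unadjusted edgeR p under 0.05, and the median log2 fold change was −0.0073. Maf, Ahr and Il23r had log2 fold changes of 0.26 ± 0.17, 0.16 ± 0.17 and −0.36 ± 0.27. Gata3, the factor of type 2 helper cells, had 13.2 and 15.0 CPM against 16.5 and 5.76 CPM, and Bcl6, the factor of follicular helper cells, had 49.3 and 30.4 CPM against 38.4 and 41.7 CPM. Both overlapped and were chosen after their values were seen.

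All 21 genes of T cell receptor signalling and pan-T markers besides Themis were higher without overlap, with a median log2 fold change of 1.81, and DESeq2 called 14. Cd27 and Cd247 were listed only through their anti-PD-L1 counts, and DESeq2 called 13 of the other 19. Both were chosen after their values were seen. Zap70, Lcp2, Cd3g and Lck, with the smallest p, had log2 fold changes of 1.58 ± 0.20, 1.81 ± 0.25, 2.39 ± 0.33 and 1.53 ± 0.26. Of 9 ligands and receptor partners of the 10 genes, 7 were higher without overlap and DESeq2 called 3. Il2rb, the beta chain of the interleukin-2 receptor, had 21.1 and 28.4 CPM in anti-PD-L1, against 1.09 and 5.04 CPM in IgG, a log2 fold change of 3.02 ± 0.79, against 1.24 ± 0.35 for Il2ra; this difference was not tested. Icosl, the ligand of ICOS, had 13.2 and 15.6 CPM against 9.13 and 9.40 CPM (log2 fold change 0.64 ± 0.18). Tnfsf4, the ligand of OX40, overlapped at 2.86 and 1.33 CPM against 2.11 and 3.26 CPM, and was chosen after its values were seen. Traf1, an adaptor of TNF receptors, and Cd86, a ligand of CD28 and CTLA-4 on antigen-presenting cells, had log2 fold changes of 1.25 ± 0.18 and 2.33 ± 0.39.

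The last list held JAK, STAT5 and SOCS genes downstream of the interleukin-2 receptor, and also nuclear factors such as Nfatc2 and Ikzf1. Of its 16 genes measured, 6 were higher without overlap, and DESeq2 called 1, a share near that of all genes. The called gene was Nfatc2, at 16.3 and 19.2 CPM in anti-PD-L1 against 10.2 and 10.3 CPM in IgG. Socs1, Jak3 and Ikzf1 had log2 fold changes of 1.45 ± 0.35, 0.96 ± 0.27 and 1.69 ± 0.68, and Socs1 was listed only through its anti-PD-L1 counts. Stat5a and Stat5b, the main STAT factors of that receptor, overlapped, Stat5a at 24.1 and 36.0 CPM against 29.6 and 28.8 CPM and Stat5b at 124 and 89.8 CPM against 89.3 and 119 CPM. Both were chosen after their values were seen.

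**Figure D4:**
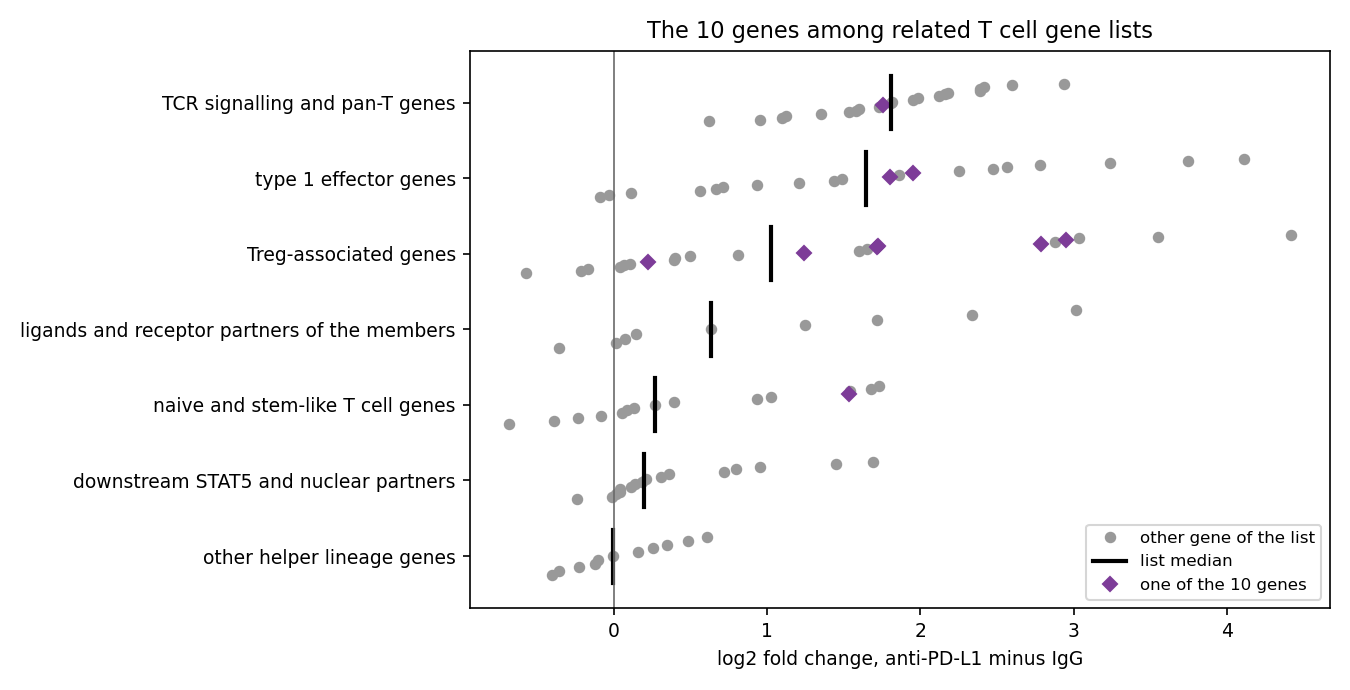
Log2 fold change (anti-PD-L1 minus IgG) of every measured gene of 7 T cell gene lists, with the 10 genes as purple diamonds, other genes as grey circles and list medians as black lines. Each median includes those of the 10 genes that are in the list. It is 1.81 for the pan-T, 1.65 for the type 1 effector and 1.02 for the regulatory list, and the list of other helper lineages lies around 0.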

How the data were processed

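Poly(A)-selected RNA from 4 thyroids was sequenced as paired 150-base reads, per the labels' protocols. The authors deposited expected counts per gene symbol, not normalized, and BWA and mm10 are named in the submitters' processing notes. How reads were counted, with which annotation and strand setting, and how genes were filtered is not given in the sources used here. Counts that were not whole occurred in 20.5% of genes, 4 of the 10 described here among them, and 13 blank cells in 12 genes were read as 0.

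Counts were rounded and fitted with edgeR 4.0.16 in R 4.3.3 (filterByExpr, TMM, robust quasi-likelihood F test on group, two-sided), adjusted over 16217 genes. The SE is the size of the log2 fold change over the root of F, and 95% intervals use the fitted total degrees of freedom. CPM is TMM-normalized, and log2 CPM used a prior count of 2. Alternatives were other scalings and filters, DESeq2 1.42.0, limma 3.58.1 voom, a replicate block and each library left out. Replicates of a group differed far beyond sampling noise (chi-square over degrees of freedom, 1056 for anti-PD-L1 and 321 for IgG). The steps were tested on simulated counts of 16217 genes, with dispersions fitted to these data. Of 100 genes with a true log2 fold change of size 1, edgeR called 7, DESeq2 31 and voom 7. Of 100 genes of size 2 they called 74, 95 and 74. Unchanged genes called at an adjusted p under 0.05 numbered 22, 94 and 21. In this simulation the unchanged share of each tool's calls was thus above 0.05, and it was largest for DESeq2.

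The 10 genes and all gene lists were chosen with earlier results of these data known. Named genes are the 10, the 4 others of smallest p in each list and those of nearest profile. Genes named beyond these were picked with their values known, as said at each, except the markers given with their list, the overlapping genes and the genes used to check the libraries. List genes without a value were not analysed here. Some genes that the rule names are not reported here.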

Additional observations from a re-analysis of the deposited data

How the results depend on the processing

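All 9 genes with separate groups kept a positive log2 fold change under the 12 alternatives (3 other scalings, 2 other filters, DESeq2, limma voom, the replicate block and 4 fits without 1 library). Ikzf2 ranged from −0.14 without IgG replicate 2 to 0.69 without IgG replicate 1. edgeR called 0 genes under every alternative fitted with it, as did voom in its 1 fit, whereas DESeq2 called 528 genes (475 higher), with 8 of the 10 among them: Foxp3, Tnfrsf18, Tnfrsf4, Icos, Tbx21, Eomes, Tcf7 and Themis. The cause of that difference between tools was not tested. The median log2 fold change of the 10 genes was between 1.38 and 2.17 in the fits on 3 libraries, lowest without IgG replicate 1 and highest without IgG replicate 2. DESeq2 called fewer of the 10 genes with each library left out than with all 4, a check added after the data were seen. Same-numbered libraries shared only a number (correlation of their deviations over genes 0.0998). With the replicate number as a block, edgeR called 0 genes, the median of the 10 genes was 1.81, and DESeq2 called 7 of the 10. The share of all genes that DESeq2 called with that block is not given here. Scaling moved the median of all genes by at most 0.0201. Without genes that reached 100 counts only in anti-PD-L1, a check added after the data were seen, DESeq2 called 7 of 9, and the regulatory list's count of separate higher genes was 4 of 12, against 8 of 16. Eomes, at 34 and 44.5 counts in IgG, is the gene most limited by depth.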
